A study of Homo sapiens with 14 samples.

Results

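The genes described here are the PDGF ligands *PDGFA*, *PDGFB*, *PDGFC*, and *PDGFD*, the receptors *PDGFRA* and *PDGFRB*, and the receptor-like gene *PDGFRL*. They were taken by gene name from the table of all genes, in which all 7 were found among 19410 genes. Their RNA was measured by RNA-Seq in MDA-MB-231, an established cell line of triple-negative breast cancer, and in 6 derivatives edited with CRISPR/Cas9, with 2 libraries of each of the 7 conditions. Parental cells carried no edit. SAP30-KO1 and SAP30-KO2 were made with different guide RNAs against *SAP30*, a subunit of the SIN3 complex. SIN3A+SIN3B-DKO1 and SIN3A+SIN3B-DKO2 were edited in *SIN3A* and *SIN3B*, the scaffolds of that complex. MLL1-KO1 and MLL1-KO2 were edited in *MLL1* (*KMT2A*), which encodes a histone H3 lysine methyltransferase. All cells were grown in medium with fetal bovine serum, and no treatment is described for the RNA-Seq cultures. While the edited lines were made, cells given a guide RNA vector were selected with puromycin, which is not described for parental cells. The part of this selection in the results was not tested. Each edited line was a mixture of several expanded single knockout cells, so that its libraries describe a pool of selected clones.

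PDGFs are secreted dimers that bind receptor tyrosine kinases on mesenchymal cells such as fibroblasts and pericytes. PDGF-A and PDGF-B are processed inside the cell, whereas PDGF-C and PDGF-D leave the cell with a CUB domain that extracellular proteases cut off before the receptors can be activated. The α receptor binds PDGF-A, PDGF-B, and PDGF-C, and the β receptor binds PDGF-B and PDGF-D. In breast tumors, PDGFs made by carcinoma cells are known to act on stromal and vascular cells. PDGFRL resembles the outer part of a PDGF receptor but has no kinase domain.

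The genes were placed on GRCh37. *PDGFA* is on chromosome 7 from 536895 to 559933, *PDGFB* on chromosome 22 from 39619364 to 39640987, and *PDGFC* on chromosome 4 from 157681606 to 157892951. *PDGFD* is on chromosome 11 from 103777917 to 104035107, and *PDGFRB* on chromosome 5 from 149493402 to 149535435. *PDGFRA* shares chromosome 4 with *PDGFC* and runs from 55095447 to 55164412. Exons of *PDGFD* overlap those of *DDI1* on the opposite strand, and the strand setting of the read counting is not given in the sources used here.

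Upstream sequence from RefSeq (GRCh38.p14) was matched for 4 of the 7 genes. The 250 bases before the start site of *PDGFD* and of *PDGFRB* are shown, because RNA of both genes was lower in all SAP30-KO and SIN3A+SIN3B-DKO libraries than in either parental library and each has 1 listed start. Both are on the minus strand, at chr11:104164148-104164397 and chr5:150155846-150156095, and capitals mark matches to a GC box (GGGCGG or CCGCCC) or a CCAAT box (CCAAT or ATTGG).
PDGFD: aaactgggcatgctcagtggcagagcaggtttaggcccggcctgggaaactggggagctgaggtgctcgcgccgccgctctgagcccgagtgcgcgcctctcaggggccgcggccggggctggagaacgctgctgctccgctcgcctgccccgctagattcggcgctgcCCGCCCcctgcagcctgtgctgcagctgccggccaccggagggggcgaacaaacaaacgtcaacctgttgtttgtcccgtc
PDGFRB: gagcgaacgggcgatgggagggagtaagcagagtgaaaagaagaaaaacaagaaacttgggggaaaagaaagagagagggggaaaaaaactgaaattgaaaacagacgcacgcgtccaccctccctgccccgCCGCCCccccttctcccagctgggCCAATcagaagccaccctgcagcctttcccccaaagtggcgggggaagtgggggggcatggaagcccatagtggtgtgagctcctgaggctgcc

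The *PDGFD* sequence held 23 CpG dinucleotides and 69.2% G and C, and the *PDGFRB* sequence held 9 CpG dinucleotides and 58.4%. The median over 35116 promoters of the same length was 11 CpG dinucleotides. Each sequence had 1 GC box match, which 42.6% of all promoters held. *PDGFRB* also had 1 CCAAT box match, found in 32% of all promoters. Neither sequence contained TATAAA or TTTATA, the TATA box letters present in 10.7% of promoters. The 4 listed starts of *PDGFA* had 1 to 5 GC box matches each, and no upstream entry was used for *PDGFB*, *PDGFC*, or *PDGFRL*.

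The values are TPM, transcript levels scaled so that each library sums to 1000000, which are per length and can be compared between genes. Libraries held 18415036 to 23162682 recovered reads. *SAP30* RNA fell from 78.9 and 82.8 TPM in parental cells to 2.75–4.96 TPM in the SAP30-KO libraries, and *KMT2A* RNA (listed as *MLL*) from 56.7 and 49.0 to 15.8–27.7 TPM in the MLL1-KO libraries. *KMT2A* was also at 23.0–35.4 TPM in the SAP30-KO libraries. *SIN3B* RNA was at 43.5–50.2 TPM in the libraries labelled SIN3A+SIN3B-DKO and at 75.1 and 77.4 TPM in parental cells, but *SIN3A* RNA was higher in them (55.1–62.5 TPM) than in parental cells (43.1 and 45.4 TPM). The *SIN3A* values therefore go against that label at the RNA level, and RNA does not measure the protein. All 5 markers of MDA-MB-231 cells, *VIM* among them, were at 1 TPM or more in every library. Of 3 genes that these cells are known to lack, *ESR1* and *PGR* were below 1 TPM in every library and *CDH1* reached 1.25 TPM, and their summed level was 1.25–1.35 TPM in parental cells and at most 0.303 TPM in the edited lines. Of 8 fibroblast and pericyte markers, 4 were below 1 TPM everywhere. *COL1A1* was at 4.15–13.2 TPM, and *RGS5* was above 1 TPM in every library and reached 1.76 TPM. *ACTA2* was at 0.526–7.06 TPM, and *LUM* reached 1.05 TPM. The defining marker *DCN* did not exceed 0.0555 TPM, and the summed level of that list was 8.26–9.90 TPM in the SIN3A+SIN3B-DKO libraries, 10.9–12.97 in SAP30-KO, 10.5–15.8 in MLL1-KO, and 13.1–13.4 in parental cells. Of 5 endothelial markers, 3 were below 1 TPM everywhere, with the defining marker *CDH5* at no more than 0.0337 TPM, whereas *PECAM1* was at 1.55–3.97 TPM and *KDR* at 0.370–6.44 TPM. The summed level of that list was 4.65–5.20 TPM in parental cells, 4.81–6.68 in SAP30-KO, 4.25–6.003 in SIN3A+SIN3B-DKO, 3.36–3.61 in MLL1-KO1, and 9.51–9.70 in MLL1-KO2. Of 4 leukocyte markers, 3 were below 1 TPM everywhere, whereas *LYZ* was at 1.32–6.32 TPM. The summed level of the leukocyte list was 1.68–1.97 TPM in parental cells, 3.08–3.66 in SAP30-KO1, and 2.15–2.84 in SAP30-KO2. It was 2.37–3.12 TPM in SIN3A+SIN3B-DKO1, 1.84–2.66 in SIN3A+SIN3B-DKO2, 6.04–6.56 in MLL1-KO1, and 5.29–6.14 in MLL1-KO2. The part of such cells in the results was not tested.

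*PDGFC* was the main PDGF RNA of these cells. It ranged from 73.5 to 134.2 TPM over the 14 libraries, with a median of 101 TPM, and made up 76.6% to 88.5% of the summed TPM of the 4 ligands. *PDGFA* ranged from 9.42 to 19.2 TPM, *PDGFRL* from 5.74 to 11.3 TPM, and *PDGFD* from 1.08 to 8.32 TPM. *PDGFRB* ranged from 0.786 to 2.99 TPM and *PDGFB* from 0.0711 to 3.15 TPM. *PDGFRA* had 0 to 3 reads in each library and did not exceed 0.0588 TPM.

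By mean level on the log2(TPM + 0.5) scale, the order was *PDGFC*, *PDGFA*, *PDGFRL*, *PDGFD*, *PDGFRB*, *PDGFB*, and *PDGFRA*. The order is a description and was not tested, because it was set by the same means. *PDGFC* was above *PDGFA*, *PDGFA* above *PDGFRL*, and *PDGFB* above *PDGFRA* in 14 of 14 libraries, and *PDGFRL* was above *PDGFD* in 13. *PDGFD* was above *PDGFRB*, and *PDGFRB* above *PDGFB*, in 12 of 14 libraries each and in 6 of 7 conditions. The difference between *PDGFD* and *PDGFRB* was 0.77 ± 0.86 (SD over the 7 condition means, log2 scale), within its spread, and that between *PDGFRB* and *PDGFB* was 0.82 ± 0.78.

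**Figure D1:**
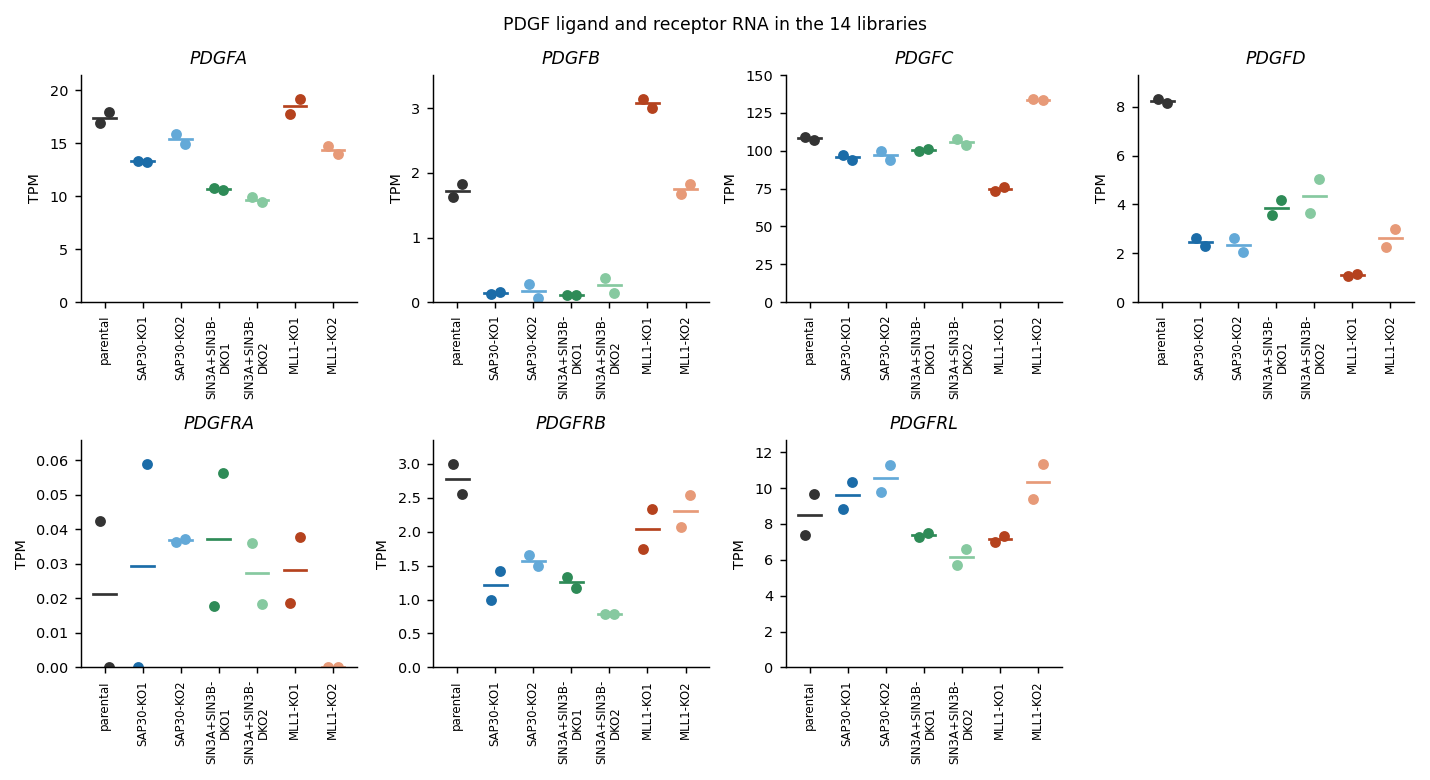
TPM (vertical axis, linear from 0, a separate scale for each gene) of the 7 PDGF genes by condition, with 1 point per library and a line at the mean of the 2 libraries. PDGFD is highest in the parental libraries (8.32 and 8.15 TPM), PDGFB is at 0.0711 to 0.381 TPM in the SAP30-KO and SIN3A+SIN3B-DKO libraries, and PDGFRA does not exceed 0.0588 TPM.

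Against parental cells, *PDGFB*, *PDGFD*, and *PDGFRB* fell in all 4 SAP30-KO and SIN3A+SIN3B-DKO lines, and *PDGFA* fell in both SIN3A+SIN3B-DKO lines. In MLL1-KO cells *PDGFD* fell in both lines and *PDGFB* rose in MLL1-KO1. A gene was called lower or higher when its Benjamini-Hochberg adjusted p in limma was under 0.05 over all 13540 genes tested and its change was at least 1.5-fold. Of the 7 genes, 6 passed the filter on low values, and *PDGFRA* did not. The comparisons of all lines share the 2 parental libraries and are not independent. Nothing in the labels says whether the libraries of a condition came from separate cultures, so the p-values measure the spread between these libraries, which may be technical.

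In SAP30-KO1, 3 of the 6 genes were called lower and 0 higher, where 7.86% and 7.8% of all genes were. In SAP30-KO2 the counts were again 3 lower and 0 higher, beside 8.12% and 7.44% of all genes. In SIN3A+SIN3B-DKO1, 4 were lower and 0 higher (8.66% and 7.76% of all genes), and in SIN3A+SIN3B-DKO2, 4 were lower and 0 higher (7.56% and 6% of all genes). In MLL1-KO1, 1 was lower and 1 higher (16.3% and 6.89% of all genes), and in MLL1-KO2, 1 was lower and 0 higher (14.9% and 10.2% of all genes). The paper had already presented *PDGFB* and *PDGFD* as representative genes lowered in SAP30-KO and SIN3A/3B-DKO cells. These counts therefore do not test an excess over the shares of all genes.

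*PDGFD*, a ligand of the β receptor that needs extracellular cutting, was at 8.32 and 8.15 TPM in parental cells. It was at 2.61 and 2.29 TPM in the libraries of SAP30-KO1 and at 2.61 and 2.05 TPM in those of SAP30-KO2. The SIN3A+SIN3B-DKO1 libraries held 3.57 and 4.17 TPM, and the SIN3A+SIN3B-DKO2 libraries 3.66 and 5.04 TPM. As in any bulk measurement, fewer cells with a transcript and less of it per cell cannot be told apart. All 8 of these libraries lay below both parental libraries, and all SAP30-KO libraries lay below all SIN3A+SIN3B-DKO libraries. In MLL1-KO1 the level was 1.08 and 1.15 TPM, the lowest of any condition, and in MLL1-KO2 it was 2.26 and 2.998 TPM. *PDGFD* was called lower in all 6 lines, as were 2.67% of all genes tested. The log2 fold changes in limma were -1.57 ± 0.17 (SE) in SAP30-KO1 with an adjusted p of 2.1e-05, and -1.63 in SAP30-KO2. They were -1.003 in SIN3A+SIN3B-DKO1 and -0.86 in SIN3A+SIN3B-DKO2, with limma adjusted p of 0.00050 and 0.0015. They were -2.44 for MLL1-KO1 and -1.49 for MLL1-KO2, with limma adjusted p of 3.7e-07 and 1.7e-05. By summed reads, which need no pseudocount, *PDGFD* was 7.40-fold lower in MLL1-KO1 (95% exact counting interval, 5.76 to 9.62, counting error only) and 1.90-fold lower in SIN3A+SIN3B-DKO2 (1.63 to 2.20). *PDGFD* kept its call in every line when any 1 library was left out.

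Genes near *PDGFD* on chromosome 11 were also lower. Among the 25 tested genes on each side of it, 45 of 50 were below parental in each SAP30-KO line, with medians of -0.79 and -0.86 on the log2 scale. In MLL1-KO1 48 of 50 were below parental, with a median of -0.94, and in MLL1-KO2 41 of 50, with a median of -0.37. The medians were -0.32 and -0.26 in the SIN3A+SIN3B-DKO lines. *PDGFD* lay below its neighbor median in every line, and of the 50 neighbors 3 and 4 lay below it in SAP30-KO1 and SAP30-KO2, 4 and 5 in SIN3A+SIN3B-DKO1 and SIN3A+SIN3B-DKO2, and 0 and 1 in MLL1-KO1 and MLL1-KO2. With a running median over 51 genes subtracted, *PDGFD* remained lower by the same call rule in each of the 6 lines, at log2 values of -0.78 and -0.77 in SAP30-KO, -0.66 and -0.59 in SIN3A+SIN3B-DKO, and -1.51 and -1.12 in MLL1-KO. A change in the number of chromosome copies was not tested.

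*PDGFB*, the ligand that binds both receptors, was at 1.62 and 1.83 TPM in parental cells, from 40 and 44 reads. SAP30-KO1 held 0.121 and 0.150 TPM, and SAP30-KO2 held 0.279 and 0.0711 TPM. SIN3A+SIN3B-DKO1 held 0.103 and 0.108 TPM, and SIN3A+SIN3B-DKO2 held 0.381 and 0.141 TPM. These 8 libraries had 2 to 11 reads each, all below parental. MLL1-KO1, by contrast, held 3.15 and 3.01 TPM, above both parental libraries, and MLL1-KO2 held 1.68 and 1.83 TPM, which overlapped them. *PDGFB* was called lower in both SAP30-KO and both SIN3A+SIN3B-DKO lines, with log2 fold changes of -1.81 ± 0.20 (SE), -1.74, -1.88, and -1.56 and limma adjusted p from 2.1e-05 to 9.5e-05. These values are on the log2(TPM + 0.5) scale, which understates the change of a gene this low. By summed reads, *PDGFB* was 12.6-fold lower in SAP30-KO1 (95% exact counting interval, 5.87 to 32.4) and 9.79-fold lower in SAP30-KO2 (5.07 to 21.2). It was 16.4-fold lower in SIN3A+SIN3B-DKO1 (7.21 to 45.9) and 6.57-fold lower in SIN3A+SIN3B-DKO2 (3.77 to 12.3). These intervals hold counting error only and leave out the spread between libraries, such as 8 and 2 reads in SAP30-KO2. In an alternative chosen after seeing the data, *PDGFB* was 24.2-fold lower in SAP30-KO2 without its replicate 1, from 2 reads, and 6.18-fold lower without its replicate 2. It was 12.2-fold lower in SIN3A+SIN3B-DKO2 without its replicate 1 and 4.53-fold lower without its replicate 2. With limma voom on the recovered reads the log2 fold changes were -3.47, -3.40, -3.79, and -2.77.

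*PDGFB* rose in MLL1-KO1 by 0.69 ± 0.20 (SE) on the log2 scale (limma adjusted p = 0.013), or 1.79-fold by reads (95% exact counting interval, 1.37 to 2.35, counting error only). In MLL1-KO2 the change was 0.02 (limma adjusted p = 0.95). The call in MLL1-KO1 did not hold with parental replicate 1 left out (0.62, limma adjusted p = 0.065), with MLL1-KO1 replicate 1 left out (0.66, limma adjusted p = 0.065), or with a pseudocount of 0.1 (limma adjusted p = 0.12) or 1 (0.58, below the fold minimum). The genes around *PDGFB* on chromosome 22 had a median log2 change of at most 0.09 in any line, and none of its 50 neighbors fell as far as *PDGFB* in a SAP30-KO or SIN3A+SIN3B-DKO line.

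*PDGFA*, a ligand of the α receptor, was at 16.8 and 17.9 TPM in parental cells. SIN3A+SIN3B-DKO1 held 10.7 and 10.6 TPM, and SIN3A+SIN3B-DKO2 held 9.90 and 9.42 TPM, below every other library. SAP30-KO1 held 13.3 and 13.2 TPM, and SAP30-KO2 held 15.8 and 14.9 TPM, all below parental. MLL1-KO1 held 17.7 and 19.2 TPM, overlapping parental, and MLL1-KO2 held 14.7 and 13.9 TPM. *PDGFA* was called lower in SIN3A+SIN3B-DKO1 (-0.68 ± 0.06, SE) and SIN3A+SIN3B-DKO2 (-0.81), with limma adjusted p of 8.0e-06 and 2.6e-06. Its log2 changes of -0.38 for SAP30-KO1, -0.17 for SAP30-KO2, and -0.27 in MLL1-KO2 had limma adjusted p under 0.05 (0.00061, 0.045, and 0.0037) but were below the 1.5-fold minimum. *PDGFA* lies near the end of chromosome 7, with 26 tested neighbors in the window, whose median log2 changes were 0.31, 0.39, 0.38, and 0.29 in the SAP30-KO and SIN3A+SIN3B-DKO lines. With the running median subtracted, *PDGFA* was also called lower in SAP30-KO1 (-0.69, limma adjusted p = 3.3e-05).

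*PDGFC*, the most abundant ligand RNA and the other one that needs extracellular cutting, was called in no line. It was at 109 and 107 TPM in parental cells, 97.0 and 94.2 in SAP30-KO1 cells, 99.8 and 94.1 in SAP30-KO2 cells, 99.9 and 101 in SIN3A+SIN3B-DKO1, and 108 and 104 in SIN3A+SIN3B-DKO2. The MLL1-KO lines moved apart, with 73.5 and 76.2 TPM for MLL1-KO1 and 134.2 and 133.2 TPM in MLL1-KO2, below and above every other library. The log2 changes were -0.53 ± 0.04 (SE) for MLL1-KO1 and 0.31 for MLL1-KO2, with limma adjusted p of 4.7e-07 and 3.5e-05, both under the 1.5-fold minimum. The 50 neighbors of *PDGFC* on chromosome 4 had median log2 changes of -0.25 in MLL1-KO1 and 0.24 in MLL1-KO2. In the other 4 lines the changes of *PDGFC* ran from -0.18 to -0.03.

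*PDGFRB*, the β receptor, was at 2.99 and 2.55 TPM in parental cells. It was at 0.997 and 1.42 TPM in SAP30-KO1 cells, 1.65 and 1.495 in SAP30-KO2 cells, 1.34 and 1.17 in SIN3A+SIN3B-DKO1, and 0.790 and 0.786 in SIN3A+SIN3B-DKO2. All of these libraries were below parental, and SIN3A+SIN3B-DKO2 was the lowest condition. MLL1-KO1 held 1.74 and 2.33 TPM and MLL1-KO2 held 2.07 and 2.53 TPM, also below both parental libraries but by less. *PDGFRB* was called lower in SAP30-KO1 (-0.94 ± 0.17, SE), SAP30-KO2 (-0.65), SIN3A+SIN3B-DKO1 (-0.90), and SIN3A+SIN3B-DKO2 (-1.34), with limma adjusted p of 0.00095, 0.0089, 0.0012, and 9.0e-05. The call in SAP30-KO2 did not hold without parental replicate 1 (-0.56, limma adjusted p = 0.062), without SAP30-KO2 replicate 2 (-0.60, limma adjusted p = 0.054), or with a pseudocount of 1 (-0.55). In MLL1-KO1 and MLL1-KO2 the log2 changes were -0.37 (95% interval, -0.76 to 0.01) and -0.23 (-0.61 to 0.16), with limma adjusted p of 0.085 and 0.28. None of the 50 neighbors of *PDGFRB* on chromosome 5 fell as far as it did in a SAP30-KO or SIN3A+SIN3B-DKO line.

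*PDGFRA*, the α receptor, was near the limit of detection, and a same-strand readthrough gene shares its exons in the annotation. It had 2 and 0 reads in parental cells, 0 and 3 in SAP30-KO1 cells, 2 and 2 in SAP30-KO2 cells, 1 and 3 in SIN3A+SIN3B-DKO1, 2 and 1 in SIN3A+SIN3B-DKO2, 1 and 2 in MLL1-KO1 cells, and 0 and 0 in MLL1-KO2 cells. A library with 0 reads allows up to 3 reads at this depth. No difference between conditions was detectable for this gene.

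*PDGFRL* lies on chromosome 8 from 17433942 to 17501580 (GRCh37), and its exons overlap those of *MTUS1* on the opposite strand, so that reads of these genes may not be told apart. It was at 7.37 and 9.67 TPM in parental cells, 8.83 and 10.4 in SAP30-KO1 cells, 9.80 and 11.3 in SAP30-KO2 cells, 7.29 and 7.52 in SIN3A+SIN3B-DKO1, and 5.74 and 6.62 in SIN3A+SIN3B-DKO2. It was at 7.02 and 7.32 TPM in MLL1-KO1 and at 9.38 and 11.3 TPM in MLL1-KO2. The parental pair had the largest SD of the 7 conditions (1.62 TPM), and *PDGFRL* was called in no line. The log2 change in SIN3A+SIN3B-DKO2 was -0.42 (95% interval, -0.73 to -0.12, limma adjusted p = 0.026), and without parental replicate 1 it passed the fold minimum (-0.61, limma adjusted p = 0.0088).

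**Figure D2:**
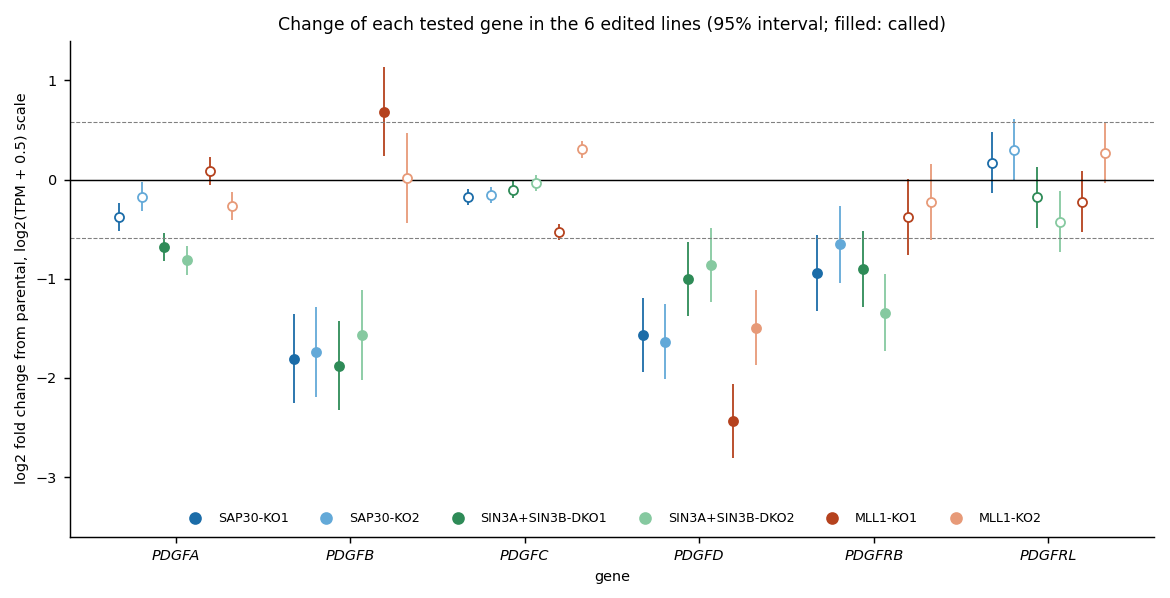
Log2 fold change from parental (vertical axis, log2(TPM + 0.5) scale) of the 6 tested genes in the 6 edited lines, with 95% intervals. Filled points were called, and dashed lines mark 1.5-fold. PDGFD is filled in all 6 lines, PDGFB and PDGFRB in the 4 SAP30-KO and SIN3A+SIN3B-DKO lines, and PDGFB lies above 0 in MLL1-KO1 (0.69).

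The lines of a genotype were compared with each other in the same limma fit. Between SAP30-KO1 and SAP30-KO2, 0 of the 6 genes were called, where 0.0739% of all genes were called in each direction, and 1 of the 6 log2 differences (*PDGFA*, -0.20) had a 95% interval that left out 0. Between SIN3A+SIN3B-DKO1 and SIN3A+SIN3B-DKO2, 0 of the 6 were called, beside 1.01% and 1.22% of all genes, with *PDGFRB* 0.44 higher in SIN3A+SIN3B-DKO1 (95% interval, 0.06 to 0.83, limma adjusted p = 0.12).

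The MLL1-KO lines differed more, with 7.15% of all genes lower and 3.27% higher in MLL1-KO1 than in MLL1-KO2. Among the PDGF genes 2 were lower and 1 higher. *PDGFC* was lower in MLL1-KO1 by a log2 difference of -0.83 ± 0.04 (SE), with a limma adjusted p of 7.3e-08. *PDGFD* was lower by -0.94 ± 0.17 (limma adjusted p = 0.0011). *PDGFB* was higher by 0.67 ± 0.20 (limma adjusted p = 0.022), a call that was lost with any 1 of the 4 MLL1-KO libraries left out (0.62 to 0.72, limma adjusted p 0.065 to 0.098) and with a pseudocount of 0.1 or 1. With the running median of neighbors subtracted, *PDGFC* (-0.33) and *PDGFD* (-0.38) were no longer called. *PDGFRL* differed by -0.50 (limma adjusted p = 0.015), under the fold minimum, and by -0.63 without MLL1-KO2 replicate 1, which passed it (limma adjusted p = 0.016).

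The genotypes were then compared as means of their lines, in which the parental libraries cancel. *PDGFD* was lower in SAP30-KO than in SIN3A+SIN3B-DKO lines by a log2 difference of -0.67 ± 0.12 (SE, limma adjusted p = 0.00091), where 3.25% of all genes were lower and 4.22% higher, and it was the 1 member called. This call was lost without SIN3A+SIN3B-DKO2 replicate 2 (-0.56) and with the neighbor median subtracted (-0.15, limma adjusted p = 0.28). The SIN3A+SIN3B-DKO2 libraries were the pair that differed most, with a chi-square of their reads over genes of 7.66 per degree of freedom against 1.46 to 3.65 in the other 6 pairs. *PDGFA* (0.47, limma adjusted p = 1.0e-05) and *PDGFRL* (0.54, limma adjusted p = 0.0010) were higher in SAP30-KO lines but under the fold minimum. Without SAP30-KO1 replicate 1, *PDGFRL* passed it (0.59, limma adjusted p = 0.0017). *PDGFB* did not separate these genotypes, with a difference of -0.05 (95% interval, -0.37 to 0.27).

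*PDGFB* was higher in MLL1-KO than in SAP30-KO lines by 2.12 ± 0.14 (SE, limma adjusted p = 2.1e-07) on the log2(TPM + 0.5) scale, which understates this change, and by 3.91 with voom. It was the 1 member called in that comparison, in which 13.5% of all genes were lower and 6.34% higher. *PDGFRB* was 0.50 higher in MLL1-KO than in SAP30-KO lines (limma adjusted p = 0.0039), under the fold minimum, and passed it without SAP30-KO1 replicate 2 (0.59), with quantile normalization (0.74), with a pseudocount of 0.1 (0.61), and with voom (0.67). With the running median of neighbors subtracted, *PDGFA* was called higher in MLL1-KO than in SAP30-KO lines (0.70, limma adjusted p = 4.9e-07), and without that step its difference was 0.18. Against SIN3A+SIN3B-DKO lines, MLL1-KO lines had 3 members higher and 1 lower, beside 6.91% and 13% of all genes. Higher were *PDGFB* (2.07, limma adjusted p = 2.5e-07, and 3.76 with voom), *PDGFRB* (0.82, limma adjusted p = 0.00012), and *PDGFA* (0.65, limma adjusted p = 2.6e-07). *PDGFD* was lower by -1.03 ± 0.12 (SE, limma adjusted p = 1.6e-05).

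*PDGFC* made up most of the ligand RNA in every library. The summed TPM of the 4 ligands was 134.8 and 136.1 in parental cells and ran from 95.5 in MLL1-KO1 to 152.9 in MLL1-KO2. *PDGFA* made up 7.95% to 19.3% of the ligand sum, *PDGFD* 1.13% to 6.11%, and *PDGFB* 0.0640% to 3.29%. *PDGFD* held its largest share in the parental libraries (6.11% and 6.05%), and *PDGFB* in MLL1-KO1. Receptor RNA, *PDGFRA* plus *PDGFRB*, summed to 0.804–3.04 TPM and was nearly all *PDGFRB*. The ratio of ligand to receptor TPM was 44.8 and 52.9 in parental cells, 42.0–54.3 in MLL1-KO1 cells, and 60.0–74.0 in MLL1-KO2 cells. It was 74.2–113 in SAP30-KO1 cells, 70.1–72.5 in SAP30-KO2 cells, 84.2–95.1 in SIN3A+SIN3B-DKO1, and 147.0–147.3 in SIN3A+SIN3B-DKO2. The 8 SAP30-KO and SIN3A+SIN3B-DKO libraries and both MLL1-KO2 libraries were above both parental libraries in this ratio, which was not tested. The ligand sum was mostly *PDGFC* and *PDGFA*, whose proteins bind the α receptor, whereas the receptor sum was nearly all the β receptor gene. RNA of *PDGFB* and *PDGFD*, the ligands of the β receptor, was lower than parental in all SAP30-KO and SIN3A+SIN3B-DKO libraries. The ratio therefore does not compare ligands with the receptor that binds them. These ratios describe RNA of 1 cell population and not the amount of protein.

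**Figure D3:**
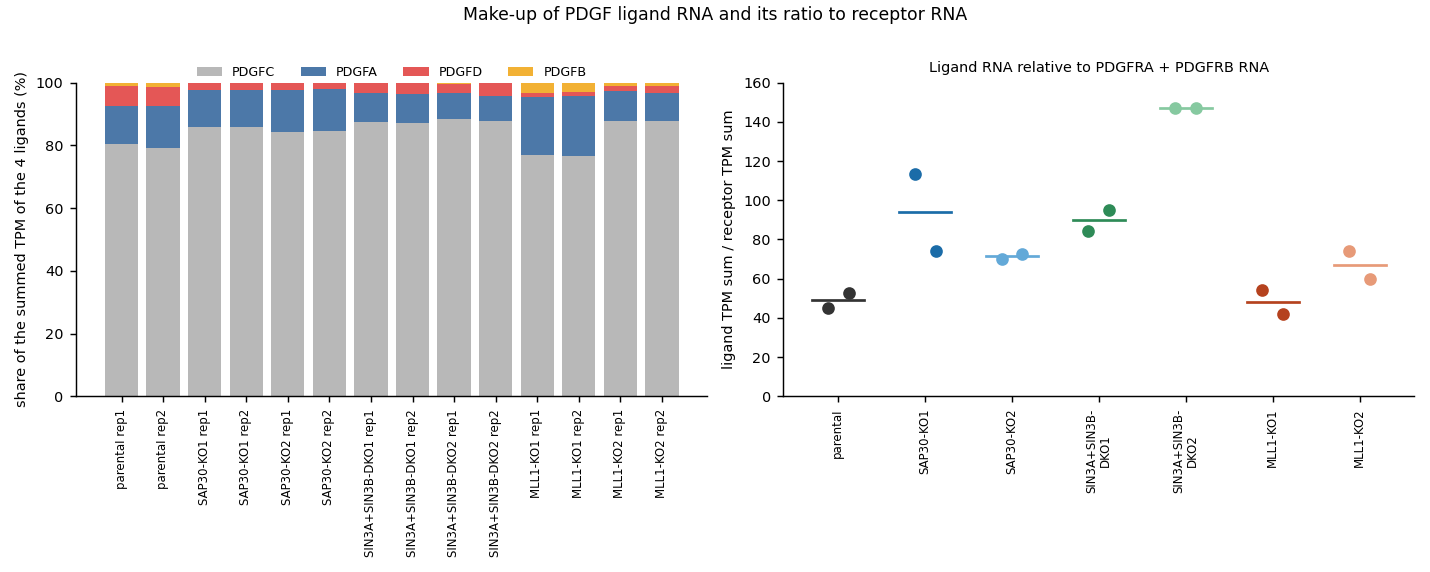
Left, share of each ligand in the summed TPM of the 4 ligands (%, stacked bars, 1 per library), in which PDGFC takes 76.6% to 88.5%. Right, ratio of summed ligand TPM to summed PDGFRA and PDGFRB TPM by condition, with 1 point per library and a line at the mean, from 42.0 in MLL1-KO1 to 147 in SIN3A+SIN3B-DKO2.

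**Figure D4:**
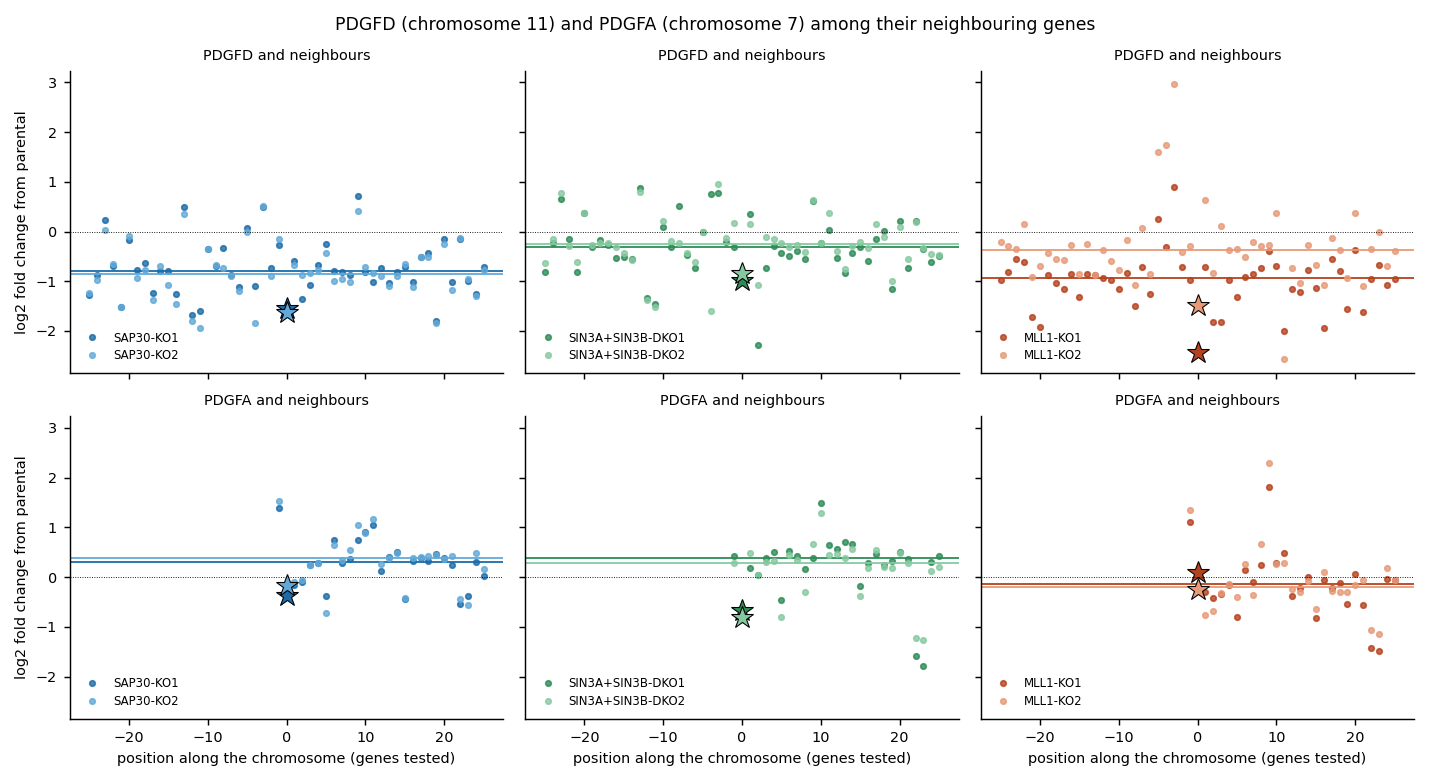
Log2 fold change from parental (vertical axis) of PDGFD and PDGFA (stars) and of up to 25 tested genes on each side (points), against position counted in genes, with a line at the neighbor median of each line. Most neighbors of PDGFD lie below 0 in SAP30-KO1 (median -0.79) and MLL1-KO1 (median -0.94), and PDGFD lies below all 50 in MLL1-KO1.

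The 3 genes most like each member were found by Pearson's r of log2(TPM + 0.5) over the 7 condition means among all genes tested, as a description. With so few points many genes reach a high r, and all lines share the parental origin. For *PDGFD* they included *FDX1* and *SNX19* (r = 0.99 each), which also lie on chromosome 11. For *PDGFB* they were *C8orf42*, *RAP1GAP2*, and *FGFBP1* (r from 0.98 to 0.99). For *PDGFRB* they were *PCDH18*, *TIAM1*, and *EEF1A1* (0.97 to 0.99), and for *PDGFA* they included *C17orf49* (0.98) and *EIF3L* (0.97). For *PDGFC* they were *KDR*, *CERK*, and *TNRC6C* (0.97 to 0.98), and *KDR*, which encodes a VEGF receptor, lies on chromosome 4 as *PDGFC* does. For *PDGFRL* they were *TMED3*, *CTSD*, and *ZNF704* (0.96 to 0.98). Among the members themselves, *PDGFRB* had r of 0.85 with *PDGFA* and 0.78 with *PDGFB*, whereas *PDGFD* had r of 0.07 with *PDGFRB* and -0.17 with *PDGFB*.

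Genes that act around the PDGFs were taken from lists chosen by known function and counted when called in both lines of a genotype, as 6.79% of all genes were lower and 6.17% higher for SAP30-KO, 5.99% and 4.7% for SIN3A+SIN3B-DKO, and 11.4% and 5% for MLL1-KO. Of 4 tested proteases known to cut PDGFs, *PLAT*, the tissue plasminogen activator that cuts PDGF-C, fell in both SAP30-KO lines (-0.88 and -0.93) and both MLL1-KO lines (-1.16 and -1.40). *FURIN*, a proprotein convertase, rose in both MLL1-KO lines (1.46 and 1.48), as did *PLAU*, the urokinase known to cut PDGF-D (1.001 and 1.32).

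Of 6 tested co-receptors and binding proteins, *CSPG4* (NG2), a proteoglycan that binds PDGF-AA, fell in all 6 lines by log2 changes from -2.35 to -4.21, from a parental mean of 15.5 TPM. *LRP1*, an endocytic receptor that associates with the β receptor, rose in all 6 lines (0.59 to 2.38), where 0.945% of all genes rose in all 6. Its change in SAP30-KO1 (0.589, limma adjusted p = 0.0165) was barely above the 1.5-fold minimum. *ITGB3*, an integrin subunit, rose in both SAP30-KO lines (1.03 and 1.13) and fell in both MLL1-KO lines (-1.98 and -1.88). *THBS1* rose in both MLL1-KO lines (1.32 and 1.55). All 26 adaptors and enzymes on the list were tested, and 3 were lower and 0 higher in both lines of each genotype. The median log2 change of this list ran from -0.19 in MLL1-KO1, where the median of all genes was -0.09, to 0.01 in SAP30-KO1, where it was 0.03. *STAT5A* (-1.61 to -2.21) and *STAT5B* (-0.72 to -1.05), transcription factors activated by receptor kinases, fell in all 6 lines. *NCK2*, an adaptor, fell in the SAP30-KO and SIN3A+SIN3B-DKO lines (-0.64 to -0.78), and *STAT3* in both MLL1-KO lines (-1.06 and -0.78).

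Of 9 attenuators, *SPRY4*, an inhibitor of receptor tyrosine kinase signaling, rose in both SAP30-KO lines (0.94 and 1.15) and both MLL1-KO lines (0.93 and 0.94). The ubiquitin ligase gene *CBL* fell in both SAP30-KO lines (-0.91 and -0.78). In both MLL1-KO lines *SH2B3* rose (1.01 and 1.23), and *PTPRJ* (-1.10 and -2.36) and *SPRY1* (-1.40 and -1.02) fell. Of the 3 class III relatives of the PDGF receptors, the 1 tested, *CSF1R*, rose in both SAP30-KO lines (2.02 and 2.06) and both MLL1-KO lines (1.51 and 1.61), from a parental mean of 0.619 TPM. Of 3 tested ligand genes of these relatives, *KITLG*, the KIT ligand, fell in all 6 lines (-0.80 to -1.89), and *CSF1* rose in both SAP30-KO lines (0.66 and 0.63) and fell in both MLL1-KO lines (-0.70 and -1.03).

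**Figure D5:**
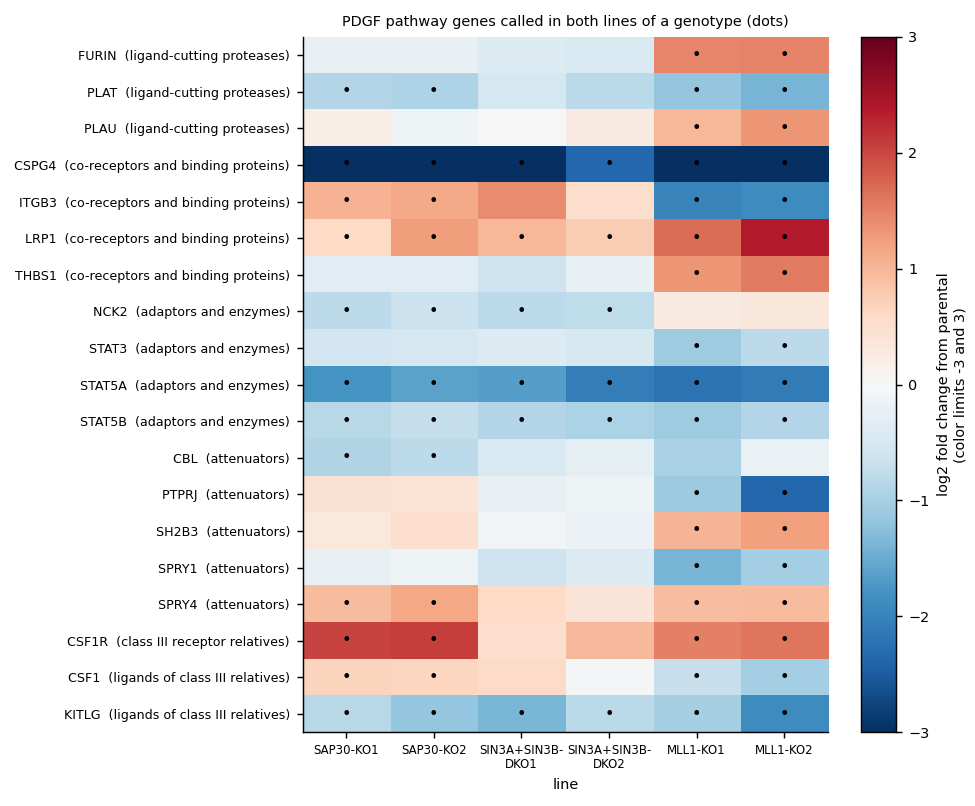
Log2 fold change from parental (color, limits -3 and 3) of the genes from the PDGF pathway lists that were called in both lines of at least 1 genotype, by line. Dots mark the genotypes in which both lines were called. CSPG4, STAT5A, STAT5B, and KITLG are below 0 and LRP1 above 0 in all 6 lines.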

How the data were processed

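RNA-Seq was performed by the authors on 14 libraries, 2 each of parental MDA-MB-231 cells and 6 edited lines, made with a KAPA mRNA HyperPrep kit. The submitters' processing notes name FastQC 0.11.2, TopHat, featureCounts, and hg19. The deposited values were named RPKM by the authors, but each library sums to 1000000, so they were used as TPM, and the tests, written for RPKM, were kept. A fixed sum hides differences in total RNA, and a rise of some genes lowers the others. Whole reads were recovered for 100.0% of the 18519 genes above 0 (tolerance 0.02), with a median of 21648530 per library. In the table, 28 gene names had become dates.

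Genes at 1 TPM or more in at least 2 libraries were fitted as log2(TPM + 0.5), with 1 mean for each of the 7 conditions and a variance trend (limma 3.58.1, R 4.3.3). Simulated data gave calls for 88.8% of 2-fold and 99.0% of 4-fold changes in SAP30-KO1 against parental, over 13034 genes. The simulation changed only genes above a minimum of parental reads and gave all libraries the same spread. The real pairs ran from 1.46 to 7.66 in chi-square per degree of freedom, so these shares are not detection rates of the data. Same-numbered libraries did not deviate together (mean r = 0.015 over 21 pairs of groups). The sign-flip test planned for the order of the members is not given, since the same means set the order. Python 3.11.15 with scipy 1.17.1 was used for the remaining values. The 7 genes are named throughout, with the 3 genes most like each (some are not reported here), the targeted genes, and genes of the pathway lists called in both lines of a genotype, at most 3 in a list and direction. Members and lists were chosen with earlier results of these data known. Alternatives were pseudocounts of 0.1 and 1, no filter, quantile and median ratio scaling, only the libraries compared, a replicate block, each library left out, no or a 2-fold minimum, neighbor medians subtracted (13062 genes placed), voom on recovered reads, and, added later, read ratios of *PDGFB* with a library left out.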

Additional observations from a re-analysis of the deposited data

Results flagged for a closer look

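The following differences between groups under the same contrast passed the limma test of the difference itself. *PDGFB*, *PDGFC*, and *PDGFD* changed differently in MLL1-KO1 and MLL1-KO2, with log2 differences of 0.669, -0.833, and -0.944. *PDGFD* differed between SAP30-KO and SIN3A+SIN3B-DKO lines by -0.668, and was not called with neighbor medians subtracted. *PDGFB* differed between MLL1-KO and SAP30-KO lines by 2.12. Between MLL1-KO and SIN3A+SIN3B-DKO lines, *PDGFB* differed by 2.07, *PDGFA* by 0.654, *PDGFRB* by 0.82, and *PDGFD* by -1.03. With 2 libraries in a condition, no library was examined by a rule for outliers, but the SIN3A+SIN3B-DKO2 libraries differed more than any other pair (chi-square per degree of freedom of 7.66 against 1.46 to 3.65), and the difference of *PDGFD* between SAP30-KO and SIN3A+SIN3B-DKO lines was -0.56 and not called without replicate 2 of that line.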

How the results depend on the processing

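Of the 504 log2 fold changes of members against parental with a library left out, 495 kept their direction and their side of the threshold, and so did 372 of 396 under the other settings. Leaving out a library of a condition outside the comparison cannot move a fold change, only its p-value. Most of the 504 are of this kind, so their stability was largely set in advance. The replicate block, for which the labels give no shared source and the numbers showed no pairing, changed no count of members called (for example, 3 lower in SAP30-KO1 and 4 lower in SIN3A+SIN3B-DKO1 with the block).

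With no fold minimum, 5 members were lower in each SAP30-KO line, 2 lower in MLL1-KO1, and 2 lower and 1 higher in MLL1-KO2. It also gave 2 higher in MLL1-KO1 than MLL1-KO2, 2 lower and 2 higher in SAP30-KO than SIN3A+SIN3B-DKO lines, and 1 lower and 3 higher in MLL1-KO than SAP30-KO lines. With a 2-fold minimum, 2 were lower in each SAP30-KO and SIN3A+SIN3B-DKO line, 0 higher in MLL1-KO1, 0 lower and 0 higher in MLL1-KO1 than MLL1-KO2, 0 lower in SAP30-KO than SIN3A+SIN3B-DKO lines, and 1 higher in MLL1-KO than SIN3A+SIN3B-DKO lines. With a pseudocount of 0.1 or 1, 0 were higher in MLL1-KO1 than in parental or MLL1-KO2 cells. Members higher in MLL1-KO than SAP30-KO lines numbered 2 with a pseudocount of 0.1, quantile normalization, or voom, through *PDGFRB*, and 2 with neighbor medians subtracted, through *PDGFA* (0.698). With neighbor medians subtracted, 0 were lower in MLL1-KO1 than MLL1-KO2 and 0 lower in SAP30-KO than SIN3A+SIN3B-DKO lines. Counts with another fold minimum follow from it, and for the other settings the cause was not tested.

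With a library left out, counts ran from 2 to 3 lower in SAP30-KO2, 4 to 5 lower in SIN3A+SIN3B-DKO2, 2 to 3 lower in MLL1-KO1 than MLL1-KO2, 0 to 1 higher in MLL1-KO1 than parental, 0 to 1 higher in MLL1-KO1 than MLL1-KO2, 0 to 1 lower and 0 to 1 higher in SAP30-KO than SIN3A+SIN3B-DKO lines, and 1 to 2 higher in MLL1-KO than SAP30-KO lines. *PDGFRB* over *PDGFB* in the order ran from 0.785 to 0.849 and was 0.845 without MLL1-KO1 replicate 1.

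Signs turned for uncalled values near 0. With neighbor medians subtracted, *PDGFC* was at 0.0189 in SAP30-KO2, 0.112 in SIN3A+SIN3B-DKO1, 0.0619 in SIN3A+SIN3B-DKO2, 0.0503 between the SIN3A+SIN3B-DKO lines, and -0.0574 for MLL1-KO minus SAP30-KO, *PDGFB* at -0.0707 in MLL1-KO2, and *PDGFD* at -0.0194 between the SAP30-KO lines. *PDGFC* for MLL1-KO minus SIN3A+SIN3B-DKO was 0.0269 with quantile normalization and 0.0466 with median ratio scaling. With a library left out, *PDGFRL* ran from -0.0151 to 0.354 in SAP30-KO1 and from -0.363 to 0.00566 in SIN3A+SIN3B-DKO1, and *PDGFB* from -0.0505 to 0.0854 in MLL1-KO2. Between the SAP30-KO lines, *PDGFB* ran from -0.293 to 0.155, *PDGFC* from -0.0627 to 0.0221, and *PDGFD* from -0.0764 to 0.210. *PDGFD* ran from -0.346 to 0.0681 between the SIN3A+SIN3B-DKO lines, *PDGFRB* from -0.318 to 0.0211 between the MLL1-KO lines, and *PDGFB* from -0.165 to 0.0635 for SAP30-KO minus SIN3A+SIN3B-DKO.

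Quantile normalization moved the median log2 change of all genes in MLL1-KO1 from -0.09 to 0.03, where 1578 genes were then lower and 1410 higher in place of 2210 and 933, and median ratio scaling gave 1838 and 1180. Limma voom on the recovered reads called 1069 genes lower and 1199 higher in SAP30-KO1 and 2133 and 1145 in MLL1-KO1. No member gained or lost a call against parental with quantile normalization or median ratio scaling. At this depth a gene with few reads, such as *PDGFRA*, allows no comparison.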
